A study of Mus musculus with 8 samples.

Results

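Venous endothelial cells line the post-capillary venules and veins that drain the cortex. In the data analysed here they were 3463 of the 50254 cells kept, and 12.3% of the 28236 endothelial cells, in 7 single-cell RNA libraries of mouse cortex. A cell was kept when it showed 500 genes or more and when under 15% of its UMIs were mitochondrial (UMIs are unique molecular identifiers, each a captured RNA molecule). It counted as endothelial when Cldn5, Flt1 and Pecam1 together reached 20 UMIs per 10000, while mural genes (Acta2, Tagln, Vtn, Rgs5) and microglial genes (C1qa, C1qb, Ctss) each stayed under 20 in sum. It counted as venous when at least 3 of Vwf, Lcn2, Lrg1, Slc38a5, Tmem252, Vcam1 and Ackr1 were detected, with under 2 of 6 arteriolar genes (Gkn3, Sema3g, Stmn2, Vegfc, Bmx, Egfl8) and under 3 of 6 large-artery genes (Mgp, Fbln5, Fbln2, Cytl1, Eln, Pi16). Measured values therefore chose these cells, and the levels of the rule genes are given below as descriptions without a test.

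The series compared 8-week-old mice lacking a laminin alpha chain with wild-type (WT) mice. Lama4-/- mice (Lama4 KO) lack laminin alpha 4, and Tek-Cre:Lama5-/- mice (Lama5 KO) lack laminin alpha 5 in cells where the Tek promoter drives Cre. Tek is active in the endothelial and also the blood lineage. Each KO had a WT control of its own, so there were 4 groups, each made from 1 pool of 3 brains from perfused animals, with the cortical tissue digested by enzymes and freed of myelin. All libraries of a group came from the same pool, so the spread between them does not hold mouse-to-mouse variation, and each test below sets 1 pool against another. The samples deposited for the Lama4 KO held identical matrices and were counted as 1 library. The other groups had 2 libraries each.

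Venules are the vessel segment through which leukocytes usually leave the blood, and their endothelium carries adhesion molecules and chemokines for that purpose. Venous identity is kept by the transcription factor Nr2f2, whereas arterial identity rests on Notch signalling. Laminins containing alpha 4 or alpha 5 chains are the main laminins of the endothelial basement membrane in brain vessels, and leukocytes cross this layer after they pass the endothelium.

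The Lama4 WT libraries gave 474 and 424 venous cells and the Lama4 KO library 400. The Lama5 WT libraries gave 571 and 590, and the Lama5 KO libraries 525 and 479. The venous cells of a library summed to between 4015462 and 5938339 UMIs. Their median depth was 7046 to 9984.5 UMIs, which was 1.83 to 3.00 times that of other endothelial cells (2346 to 4938.5), meaning endothelial cells that met neither the venous nor an arterial rule. A deeper cell shows more genes, so the rule admits deep cells more easily. Between 6.68% (Lama5 KO library 2) and 27.2% (Lama4 WT library 1) of the venous cells of a library also showed at least 3 markers of another cell type. Any pair of libraries shared at most 24 barcodes of kept cells and at most 1 of venous cells.

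Most venous cells were held together by 3 of the rule genes. Tmem252, a small membrane protein, was detected in 95.4% to 99.3% of them, Slc38a5, a glutamine transporter, in 92.8% to 96.9%, and Vwf, the clotting glycoprotein von Willebrand factor, in 86.5% to 93.6%. Among the 49 combinations of genes that occurred, exactly Vwf with Slc38a5 and Tmem252 was the commonest, in 1441 cells (41.6%). These genes are not limited to the venous cells: other endothelial cells held Tmem252 in 45.6% to 61.5%, Slc38a5 in 20.6% to 40.1% and Vwf in 8.78% to 19.5%. Their levels in microglia, which should lack them, were at most 3.15%, at median depths of 2863 to 7184.5 UMIs.

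The remaining rule genes divided the venous cells. Vcam1, the adhesion molecule that holds leukocytes, was detected in 39.9% and 41.8% of venous cells in the Lama4 WT and 43.8% in the Lama4 KO. In the Lama5 experiment the WT shares were 51.5% and 52.9%, and those of the KO 69.5% and 64.3%. Microglia held Vcam1 in 6.24% to 12.4% of cells. Lcn2, an iron-binding acute-phase protein, was found in 23.4% and 21.2% of venous cells in the Lama4 WT and 21.3% in its KO. It was found in 12.1% and 13.1% in the Lama5 WT and in 31.1% and 30.9% in the Lama5 KO. Lrg1, a secreted glycoprotein of the acute phase, was detected in 4.90% to 15.3% of cells of a library, and Ackr1, the chemokine receptor typical of venules, in 0.847% to 9.75%.

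Both Lcn2 and Vcam1 were thus more widely detected in the Lama5 KO libraries than in their WT, without overlap. The other direction was seen for Vwf (91.2% and 90.2% of venous cells in WT, 86.5% and 87.9% in KO), Slc38a5 (95.8% and 96.1% against 92.8% and 94.4%) and Tmem252 (98.8% and 99.3% against 95.6% and 95.4%), also without overlap. After each cell was thinned to 2000 UMIs, which left out 9 to 15 venous cells per library in this experiment, Lcn2 was detected in 4.80% and 4.14% of WT and in 16.2% and 16.2% of KO venous cells. Vcam1 was then detected in 28.8% and 30.7% of WT and 47.0% and 45.04% of KO cells. Vwf was then detected in 44.8% and 49.7% of WT and 47.0% and 47.4% of KO cells, which overlapped. Tmem252 overlapped too, at 73.5% and 71.0% in WT and 66.7% and 71.8% in KO. Slc38a5 stayed without overlap, at 56.9% and 57.1% in WT and 51.7% and 54.5% in KO. The summed level of Lcn2, in CPM (counts scaled to a common total for the summed cells of each library), was 35.7 and 27.1 in WT and 185 and 179 in KO venous cells. Over all endothelial cells, whose gate does not use Lcn2, it was 8.87 and 8.69 CPM in WT and 47.7 and 44.9 CPM in KO. Slc38a5 was detected in 32.4% and 32.8% of all endothelial cells in WT and in 25.65% and 24.7% in KO. In the Lama4 experiment the venous level of Lcn2 was higher, at 243 and 218 CPM in the WT and 178 CPM in the KO.

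The number of rule genes per cell shifted with them. In the Lama5 WT, 58.5% and 54.6% of the venous cells showed exactly 3 rule genes, and in the Lama5 KO 43.1% and 46.6% did. Cells with 5 or more made up 10.7% and 11.2% in WT and 24.95% and 22.55% in KO. The Lama4 experiment had 63.1% and 62.5% of cells with exactly 3 in the WT and 59.8% in the KO. Lcn2 and Vcam1 are themselves counted in this number. Their wider detection in the Lama5 KO thus enters the larger part of cells with 5 or more by definition. No rule without Vcam1 was tried. Before thinning, Vwf, Slc38a5 and Tmem252 were detected in smaller shares of Lama5 KO than of WT cells. After thinning, only Slc38a5 kept this without overlap. The comparisons below are given for the separate parts where that matters.

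**Figure D1:**
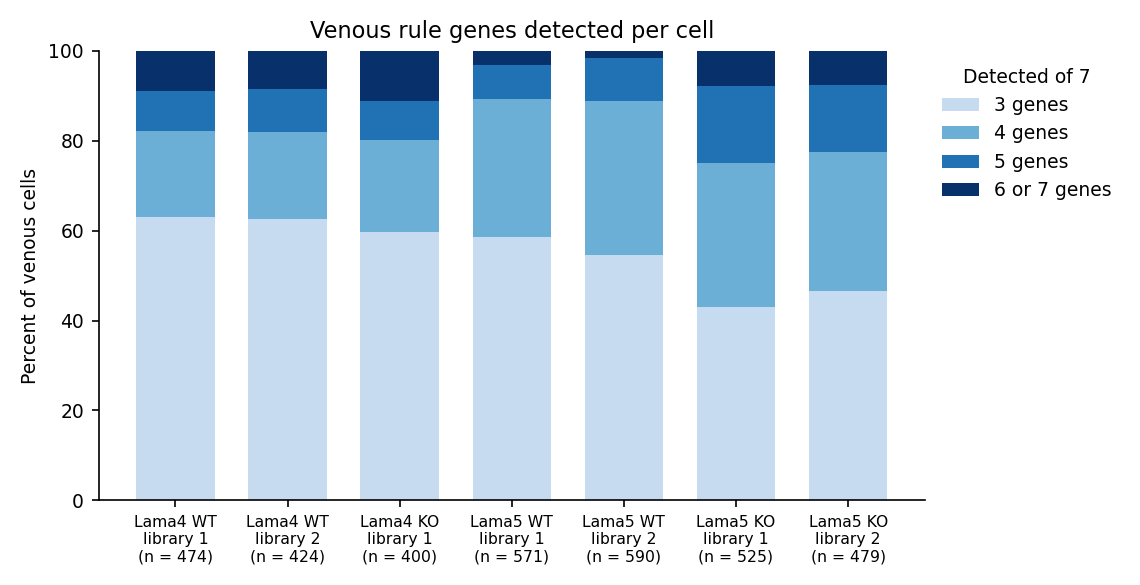
Percent of venous cells (vertical axis) by the number of the 7 venous rule genes detected in the cell, for each of the 7 libraries, with the number of cells under each bar. The lightest segment, exactly 3 genes, is smallest in the Lama5 KO libraries (43.1% and 46.6%).

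The threshold of 3 genes lay within a gradient. Endothelial cells just outside it, with exactly 2 rule genes, held Nr2f2 at 29.9 to 72.5 CPM, cells with exactly 3 at 56.3 to 128 CPM, and cells with 4 or more at 192 to 252 CPM. Cxcl12, a chemokine of capillary and arterial endothelium, went the other way, from 1252 to 3299 CPM with 2 genes to 548 to 2124 CPM with 3 and 176 to 480.4 CPM with 4 or more. Ptgs2, the inducible enzyme of prostaglandin synthesis, was at 1.30 to 15.01 CPM with 2 genes, 5.59 to 41.2 CPM with 3 and 112 to 243 CPM with 4 or more. The most venous expression thus sat in the cells with 4 or more genes, and those with exactly 3 were nearer to capillary cells. Depth rose along the same steps, with library medians of 3283 to 5538 UMIs at 2 genes and 5201 to 8854 UMIs at 3. How far depth sorted cells along this gradient was not tested.

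Venous cells differed from other endothelial cells in the same direction in every library for 2261 of 6462 genes at 20 CPM or more in either class. Because the venous cells were selected on detected genes and were deeper, these differences describe the selection and were not tested. At 50 CPM or more, 31 genes were at least 2-fold higher and 11 at least 2-fold lower in all 7 libraries. The median log2 ratio over genes of 20 CPM was 0.01. Ptgs2 headed the higher genes, 18.0- to 29.9-fold above other endothelial cells, with a mean of 115 CPM against 3.65 CPM. Il1r1, the receptor for interleukin 1, followed at 9.06- to 13.9-fold, with 324 CPM against 30.1 CPM. Both genes are parts of the known response of brain vessels to interleukin 1.

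Further genes are picked here by role, not by their order. Ch25h, which makes 25-hydroxycholesterol, was 5.21- to 29.2-fold higher. The class I histocompatibility gene H2-Q7 was 5.18- to 8.23-fold higher, the adhesion molecule Icam1 4.90- to 9.78-fold and the neutrophil chemokine Cxcl1 3.21- to 5.61-fold. Csf1, the growth factor of macrophages and microglia, had a mean of 73.8 CPM in venous and 22.3 CPM in other endothelial cells.

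Identity genes outside the rule also separated. Nr2f2 was 3.98- to 4.97-fold higher (mean 173 against 37.9 CPM), and was at 10.2 CPM in cells selected by the arteriolar genes and 5.57 CPM in those selected by the large-artery genes. Nrp2, a co-receptor typical of veins and lymphatics, was 2.80- to 4.14-fold higher, and Wnt5a, a Wnt ligand, 5.08- to 8.55-fold. On the lower side stood Cxcl12 (mean 694 against 2688 CPM), the arterial Notch target Hey1 (15.1 against 59.6 CPM), the arterial ligand Efnb2 (17.3 against 56.9 CPM), the guidance receptor Unc5b (13.6 against 50.3 CPM) and Alpl, an alkaline phosphatase of arterioles and capillaries (14.1 against 70.9 CPM).

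By list, 11 of 14 further venous genes, 14 of 16 acute-phase and cytokine-response genes and 12 of 12 class I presentation genes were higher in venous cells in all 7 libraries. Of the same 14 venous genes 2 were lower in all 7, and of the acute-phase and class I lists 0 were. Of 6445 genes at 20 CPM or more outside the rule, 18.6% were higher and 16.3% were lower in all 7. Of 10 arterial genes 7 were lower in all and 1 was higher, and of 14 capillary genes 5 were lower and 2 higher. The venous selectins were almost absent: Selp was at 0 to 1.52 CPM and Sele at 0 to 3.03 CPM in the venous cells of a library, and the fenestral protein Plvap at 0 to 6.37 CPM. Nr2f2, Nrp2 and the fall of the arterial genes thus match the venous label, whereas the selectins of inflamed venules were hardly detected.

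**Figure D2:**
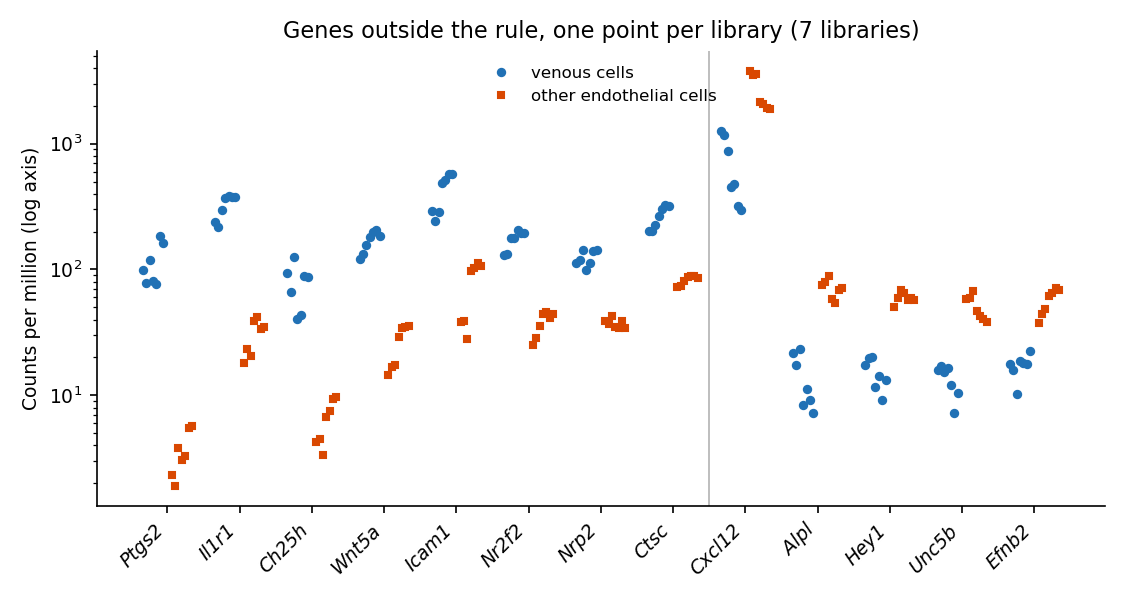
Levels (CPM, log axis) of genes outside the selection rule in venous and other endothelial cells, 1 point per library for the 7 libraries. Ptgs2, Il1r1 and Nr2f2 lie higher in venous cells and Cxcl12, Hey1 and Alpl lower, in every library.

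The targeted transcripts were checked in the venous cells first. Lama4, on chromosome 10 (38965515 to 39110188, plus strand, GRCm38), was at 53.4 and 47.2 CPM in the Lama4 WT libraries, from 541 UMIs, and had 0 UMIs in the Lama4 KO. A count of 0, taken as a limit of 3 counts, allows up to 1.45% of the WT level, from counting error only. Lama5, on chromosome 2 (180176373 to 180225859, minus strand), was at 34.97 and 32.59 CPM in the Lama5 WT and at 17.5 and 18.9 CPM in the Lama5 KO. The KO ratio was 0.537 of WT (exact 95% interval 0.443 to 0.650, counting error only). The libraries read the 3-prime end of a transcript, so reads outside the deleted part of the gene do not check the deletion.

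Each KO also had a value for the other laminin chain. In the Lama5 KO, venous Lama4 was at 60.9 and 46.3 CPM against 31.7 and 32.4 CPM in WT, above WT in both libraries, and rose by 0.82 on the log2 scale (standard error, SE, 0.12, adjusted p = 6.83e-05). This p is from edgeR's quasi-likelihood test with Benjamini-Hochberg adjustment, as are the adjusted p-values that follow. Lama5 fell by 0.83 (adjusted p = 0.000250). In the Lama4 KO, Lama5 was at 55.1 CPM against 45.6 and 47.7 CPM, a ratio of 1.19 (exact 95% interval 1.01 to 1.39), with no replicate check. Among venous cells with exactly 3 rule genes, neither Lama4 (adjusted p = 0.120) nor Lama5 (adjusted p = 0.176) passed in the Lama5 KO, with log2 changes of 0.56 and -0.59.

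The Lama5 KO changed 904 of 11168 genes in venous cells (8.09%) at an adjusted p under 0.05, leaving the rule genes out of the count. Of these, 565 were higher in the KO (5.06%) and 339 lower (3.04%). Most changes were small: 108 genes were at least 2-fold apart, 55 of them higher, and the median log2 change over all genes was -0.01. By an unadjusted p under 0.05, 2235 genes passed. DESeq2 called 278 genes among the 2652 for which it gave an adjusted p, all of them also called by edgeR.

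The genes with the largest rises are named by a rule: at least 50 CPM in the KO, both KO libraries above both WT libraries, and not over 10 times higher in another cell class. H2-Q6 and H2-Q7, class I histocompatibility genes, led. H2-Q6 (chromosome 17, 35424850 to 35430055) was at 13.8 and 13.6 CPM in WT and 51.3 and 58.5 CPM in KO, a log2 change of 2.07 (SE 0.13, adjusted p = 3.29e-10). H2-Q7 (35439155 to 35443773) was at 23.1 and 29.4 CPM in WT and 91.6 and 83.9 CPM in KO, a log2 change of 1.81 (SE 0.10, adjusted p = 9.84e-11). These neighbours are near-identical, so the split of reads between them is uncertain. The other experiment had higher levels, with H2-Q7 at 84.4 and 87.3 CPM in the Lama4 WT and 107 CPM in the Lama4 KO.

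Of the 12 named risers 10 had an upstream sequence in the RefSeq promoter table (GRCm38.p6, 250 bases before to 50 after the start). The kappa-B consensus, the site bound by NF-kappa-B, was searched by its 10-letter pattern on both strands and occurred in 3 of these 10, namely H2-Q6, H2-Q7 and Cxcl1. It also occurred in 2 of 9 named genes that fell (Hspa1b and Tbc1d14), in 0 of 5 venous rule genes, and in 2225 of all 27025 genes with a promoter in the table (8.23%), or 2382 of all 32851 promoters (7.25%). Most named genes lacked it, and a match describes letters only. The stretches around the matches are shown because the class I pair shares nearly the same one; capitals mark the matched bases, where forward and reverse matches overlap.
H2-Q6 chr17:35424617-35424747 plus strand: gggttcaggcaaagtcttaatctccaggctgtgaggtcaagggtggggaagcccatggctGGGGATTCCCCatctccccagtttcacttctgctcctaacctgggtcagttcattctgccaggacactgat
H2-Q7 chr17:35438962-35439091 plus strand: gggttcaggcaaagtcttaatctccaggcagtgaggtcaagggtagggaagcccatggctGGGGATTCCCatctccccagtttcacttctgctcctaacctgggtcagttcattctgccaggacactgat
Cxcl1 chr5:90891114-90891244 plus strand: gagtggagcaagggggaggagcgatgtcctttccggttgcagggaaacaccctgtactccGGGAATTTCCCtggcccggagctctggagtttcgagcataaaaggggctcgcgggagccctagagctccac
In the class I pair, 58 of the 60 bases before the match and 60 of the 60 after it were identical.

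The next genes had smaller rises than the class I pair. Ptgs2 (chromosome 1, 150100031 to 150108227) was at 81.4 and 76.3 CPM in WT and 185 and 163 CPM in KO, a log2 change of 1.21 (SE 0.07, adjusted p = 3.29e-10). Ch25h was at 40.7 and 43.5 CPM in WT and 88.6 and 87.7 CPM in KO, a log2 change of 1.13. Epha2, a receptor for ephrin A ligands, was at 45.9 and 44.5 CPM in WT and 91.4 and 85.4 CPM in KO. In each of these the KO libraries lay close together and well above the WT libraries.

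Plaur, the urokinase receptor, rose by 0.90 on the log2 scale, from 60.6 and 61.0 CPM to 107 and 109.8 CPM. Tnfrsf12a, the receptor for the cytokine TWEAK, rose by 0.77 and Cxcl1 by 0.76, the latter from 90.4 and 89.3 CPM to 144 and 147 CPM. Sgms2, a sphingomyelin synthase, and Lars2, a mitochondrial leucyl-tRNA synthetase, each rose by 0.69. The remaining riser, Gm42418, overlaps ribosomal RNA repeat sequence, so reads of other origin may be counted in it. It was at 28310 and 27440 CPM in WT and 47490 and 52570 CPM in KO.

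Among the falls, 8430408G22Rik, a gene of small and little-studied product, was at 67.3 and 68.4 CPM in WT and 36.0 and 27.9 CPM in KO, 0.498 times the WT level in the fit (adjusted p = 9.32e-07). Hspa1b, an inducible heat-shock protein, was at 559 and 638 CPM in WT and 359 and 346 CPM in KO, a log2 change of -0.69. Rsad2, the antiviral protein viperin, fell by 0.61 and Rtp4, another interferon-induced gene, by 0.52. Both are markers of the type I interferon response.

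Car5a, a mitochondrial carbonic anhydrase, fell by 0.60, from 110.2 and 113 CPM to 69.2 and 71.2 CPM. Cxcl12 was at 454 and 479 CPM in WT and 319.5 and 297 CPM in KO, a log2 change of -0.53 (SE 0.05, adjusted p = 3.24e-07). Also lower were Serpine2, a serine protease inhibitor (-0.51), Gm26802 (-0.61), Tbc1d14 (-0.57), Zfp871 (-0.55) and Ccdc85b (-0.52).

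**Figure D3:**
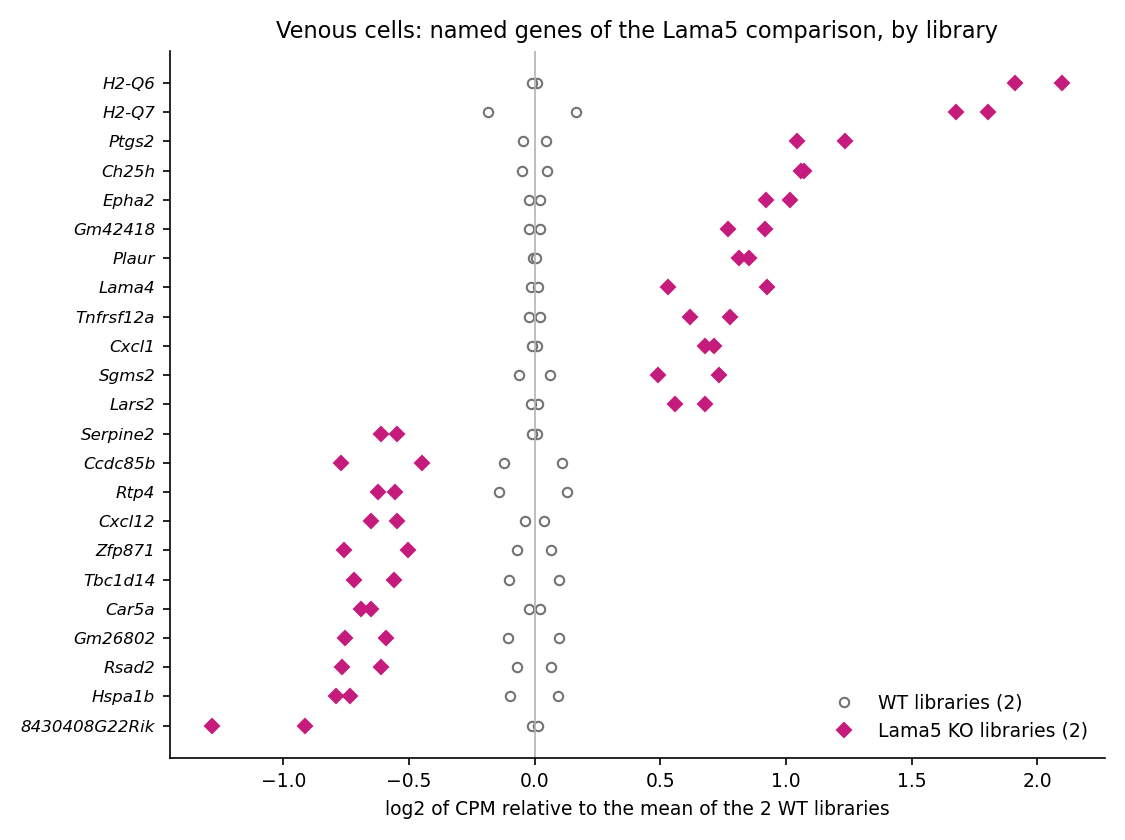
Log2 of the CPM level of the named genes in venous cells, relative to the mean of the 2 WT libraries (horizontal axis), 1 point for each of the 2 WT and 2 Lama5 KO libraries. Both KO points lie above both WT points for the risers and below them for the genes that fell, as the naming rule required.

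The named changes were compared between cells with few and many rule genes, since the makeup of the venous cells had shifted. All 24 had the same sign in cells with exactly 3 and in cells with 4 or more; 24 passed the test in the latter and 17 in the former. Without the cells that showed markers of another type, all 24 still passed, as they did without any single library. Over the 904 calls, 844 of the 850 genes fitted in both subsets had the same sign in both, and 154 passed in each of them. The genes were called on the sum of these same cells, so agreement in sign was favoured in advance. It cannot show whether the shift in makeup had a part in the changes. Icam1 and Nfkbiz, an NF-kappa-B inhibitor-like factor, were called over all venous cells, with log2 changes of 0.27 and 0.32, but not among cells with 4 or more rule genes (adjusted p = 0.309 and 0.321).

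RNA of other cell types also differed between these libraries. The summed level of 7 astrocyte markers in venous cells was 114 and 219 CPM in WT and 83.9 and 73.5 CPM in KO, and 4 of the 5 tested fell. The sum of 8 microglial markers was 66.3 and 62.9 CPM in WT and 108 and 77.0 CPM in KO, with 2 of 8 higher. Choroid plexus markers, mostly Ttr, summed to 3.25 and 4.14 CPM in WT and 45.6 and 36.6 CPM in KO. Globin and other red cell genes summed to 3281 and 812 CPM in WT and 727 and 875 CPM in KO, so WT library 1 stood apart. The part of this RNA in the changes was not tested beyond leaving out the mixed cells. Of 622 changed genes that met the level and separation criteria, 15 were set aside from naming because another cell class held them over 10 times higher, among them Slc1a2 and Gja1 of astrocytes.

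The gene lists were counted beside the 5.06% of all genes that were higher and the 3.04% that were lower. Some called genes stand in several lists, so the counts are not independent. Icam1 is counted with the venous, cytokine-response and adhesion genes, and Ch25h with the venous and cytokine-response genes. Ptgs2 is counted with the cytokine-response and prostaglandin genes, and Cxcl12 with the capillary and adhesion genes. Of 13 tested class I presentation genes 7 rose and 0 fell, with a median log2 change of 0.22. Besides the H2-Q pair these were H2-K1 (812 and 815 CPM in WT, 1015 and 1019 CPM in KO), H2-D1, B2m, the light chain of class I molecules, and the immunoproteasome subunits Psmb8 and Psmb9. No class II gene was expressed highly enough to be tested.

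Interferon-stimulated genes moved the opposite way. Of 14 tested 7 fell and 1 rose, with a median of -0.29. Ifit3 was at 42.6 and 45.8 CPM in WT and 30.2 and 25.9 CPM in KO (log2 change -0.58), Usp18 at 45.3 and 43.7 CPM against 29.6 and 30.4 CPM (-0.50), and Ifit1 at 104 and 120 CPM against 79.0 and 75.2 CPM (-0.47). These encode RNA-binding antiviral proteins and, in Usp18, a brake on interferon receptor signalling. The member that rose was Ifitm3, from 1210 and 1166 CPM to 1295 and 1253 CPM.

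Acute-phase and cytokine-response genes rose in 7 of 16 cases, with 0 falls and a median of 0.17. Beside Ptgs2, Ch25h and Icam1 these were Tnfaip3, a feedback inhibitor of NF-kappa-B (62.5 and 65.2 CPM in WT, 87.8 and 85.7 CPM in KO), the transcription factors Stat3 and Cebpb, and Nfkbiz. Cebpb was set aside in naming as 1 of the 15 genes above.

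Of 13 leukocyte adhesion genes 3 rose, Cxcl1, Cxcl10 and Icam1, and 1 fell, Cxcl12, with a median of 0.06. Cxcl10, a T cell chemokine, was at 50.8 and 51.4 CPM in WT and 75.2 and 71.7 CPM in KO. Of 15 further venous genes 6 rose and 0 fell, with a median of 0.07. Nrp2 went from 99.6 and 113 CPM to 141 and 144 CPM (log2 change 0.49). Ctsc and Adgrg6 also rose. In cells with at least 4 rule genes 3 of the 6 passed, and Adgrg6 (log2 change 0.17, adjusted p = 0.449), Ctsc (0.15, adjusted p = 0.176) and Icam1 (0.10, adjusted p = 0.309) did not. In the same cells 5 of the 7 class I genes, 5 of the 7 interferon-stimulated genes that fell, 4 of the 7 acute-phase and cytokine-response genes and 4 of the 6 capillary genes that fell still passed. Among cells with exactly 3 rule genes, 0 of the 7 interferon-stimulated falls passed, though all 7 kept their sign. There 5 of the 7 class I, 5 of the 7 acute-phase and cytokine-response and 3 of the 6 capillary genes passed. Nr2f2 was at 179 and 205 CPM in WT and 196 and 195.5 CPM in KO (log2 change 0.10, adjusted p = 0.426).

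Of 12 prostaglandin and retinoid genes 3 rose and 1 fell, with the highest median of the lists tested here apart from markers of other cell types, 0.45. Stra6, the receptor for the retinol-binding protein, was at 12.4 and 13.2 CPM in WT and 22.8 and 27.9 CPM in KO. Ptgis, the prostacyclin synthase, was lower, at 28.3 and 27.7 CPM against 17.9 and 17.4 CPM. Ptgs2 and Ptgis act in turn in the making of prostacyclin.

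Capillary genes fell in 6 of 14 cases and rose in 1, with a median of -0.14. Apart from Cxcl12, the amino acid transporter Slc7a5 was at 758 and 742 CPM in WT and 584 and 557 CPM in KO, and Rgcc, a cell cycle regulator, at 897 and 853 CPM against 698 and 740.4 CPM. The riser was Tfrc, the transferrin receptor, from 365 and 363 CPM to 439 and 420.4 CPM. Of 11 arterial genes 2 rose, Edn1 (endothelin 1) and Tm4sf1, and 0 fell.

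Basement membrane genes other than the targeted chain mostly had small changes. Of 14 tested 3 fell, Lama5, Sparc and Agrn, and 1 rose, Lama4, with a median of -0.14. Sparc, a collagen-binding matrix protein, was at 1583 and 1497 CPM in WT and 1215 and 1039 CPM in KO (log2 change -0.38), and Agrn, the proteoglycan agrin, at 129.7 and 126 CPM against 92.9 and 96.1 CPM (-0.37). The collagen IV chain Col4a1 was at 579.7 and 587 CPM in WT and 527 and 479.6 CPM in KO (adjusted p = 0.0643). Without mixed cells, those with at least 3 markers of another cell type, Col4a1 passed at -0.23 (adjusted p = 7.58e-05) and Col4a2 at -0.25 (adjusted p = 0.000454). Of 10 laminin receptors 2 fell: the integrin subunit Itga1 (log2 change -0.26) and Bcam, which binds laminin alpha 5 (-0.23). The main laminin-binding integrin subunit Itga6 had a log2 change of 0.00.

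Among barrier genes, the junction proteins Ocln and Tjp1 and the efflux pump Abcb1a did not pass. Of 10 haemostasis genes 1 rose, S100a10. Of 7 shear-responsive genes Klf2 fell, from 4237 and 4244 CPM to 3397 and 3374 CPM, while Asb4 rose and Klf4 passed with a log2 change of 0.11. Of 13 immediate-early and heat-shock genes 6 fell, among them Fos, Jun and the heat-shock genes Hspa1a and Hspa1b, and 2 rose, Fosb and Egr1. Of 17 genes of TGF-beta, BMP and Wnt signalling Fzd4, Id1 and Id3 fell and Smad7 rose. The calls of Adgrg6, Rgcc, Tm4sf1, Bcam, Klf4, Smad7, Id1 and Id3 were lost without at least 1 of the 4 libraries.

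**Figure D4:**
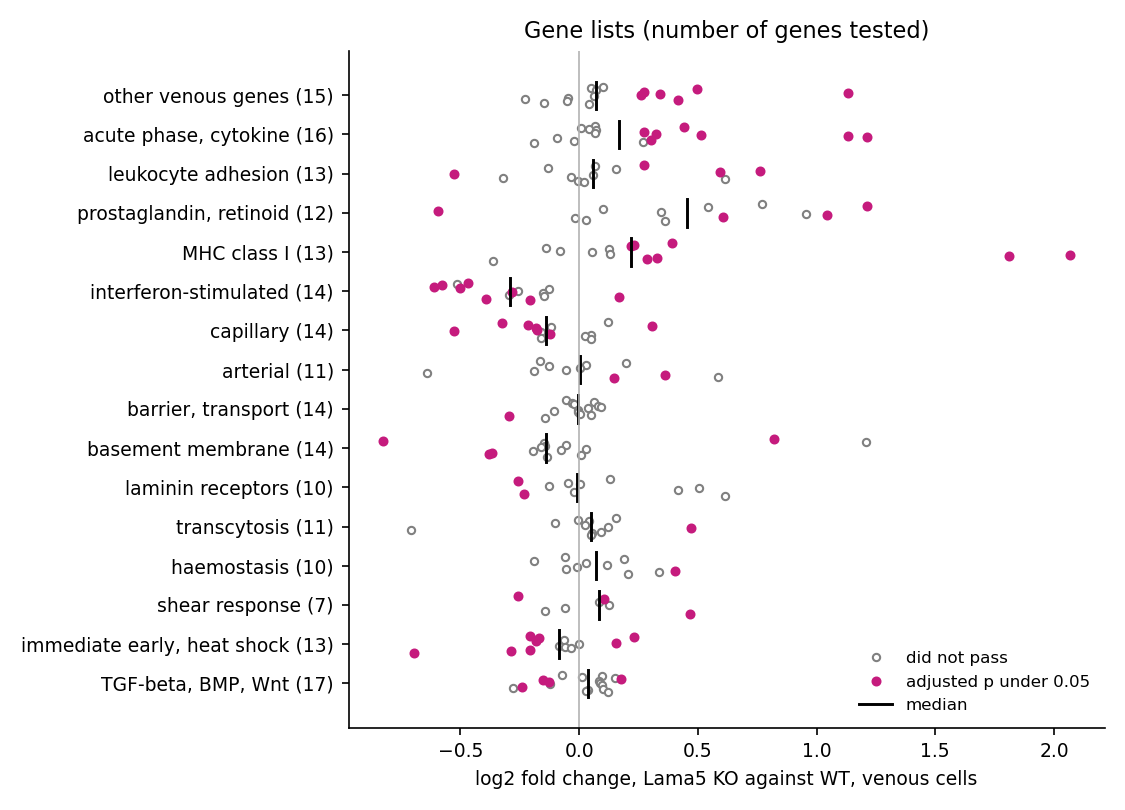
Log2 change in the Lama5 KO against WT (horizontal axis) of each tested gene in venous cells, by gene list, with genes past an adjusted p of 0.05 in colour and the median of each list as a bar. Class I genes lie mostly right of 0 (7 of 13 called higher) and interferon-stimulated genes mostly left (7 of 14 called lower).

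Whether these effects were particular to venous cells was tested as the difference of the KO effect between venous and other endothelial cells of the same libraries. It passed for 7 of 12417 genes (0.0564%). On simulated counts with an assumed spread, this test recovered 37% of true 2-fold and 9% of true 1.5-fold differences, with 9 false calls. A gene that did not pass may therefore still differ between the classes. The 7 genes that passed were no more than the 9 false calls on simulated counts, so false calls may be among them. By an unadjusted p under 0.05, 819 genes passed. Leaving out any single library of the 4 gave 13 to 44 genes. Cxcl12 fell more in venous cells: its log2 change was -0.53 there and -0.06 in other endothelial cells, a difference of -0.47 (SE 0.05, adjusted p = 0.000176). Other endothelial cells held it at 2132 and 2064 CPM in WT and 1925 and 1871 CPM in KO, so the venous level was lower to start with and changed more. Among cells with 4 or more rule genes the Cxcl12 difference was -0.27 and did not pass (adjusted p = 0.152).

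A pair of genes of iron handling rose more in venous cells. Fth1, the ferritin heavy chain, was at 2865 and 2594 CPM in WT and 3747 and 3772 CPM in KO venous cells, while other endothelial cells held 2781 and 2478 CPM against 2788 and 2678 CPM. The difference of the effects was 0.39 (adjusted p = 4.02e-05). Cp, the copper-binding ferroxidase ceruloplasmin, was at 139.7 and 137 CPM in WT and 198 and 202 CPM in KO venous cells, a difference of 0.47 from the effect in other endothelial cells (adjusted p = 0.00438). With 4 or more rule genes Cp did not pass (difference 0.44, adjusted p = 0.0624). For both genes, the venous KO libraries stood apart from the WT libraries while those of other endothelial cells overlapped.

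The other genes whose effect differed were non-coding. Neat1, a nuclear RNA that builds paraspeckles, rose by 0.51 in venous and 0.26 in other endothelial cells, a difference that was 0.26 with 4 or more rule genes and did not pass there (adjusted p = 0.0827), against 0.24 in all venous cells. Gm26532 fell by 0.50 in venous cells and had a log2 change of -0.11 in others, and its difference of -0.40 was -0.44 without KO library 1 and -0.36 without KO library 2, where it did not pass (adjusted p = 0.0782 and 0.0794). Gm42418 and AY036118, which overlap each other on opposite strands of the ribosomal repeat locus, rose less in venous cells, by differences of -0.14 and -0.35. Of the 24 named genes, 20 also passed in other endothelial cells and all 24 had the same sign there, and only Cxcl12 and Gm42418 passed the test of the difference.

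**Figure D5:**
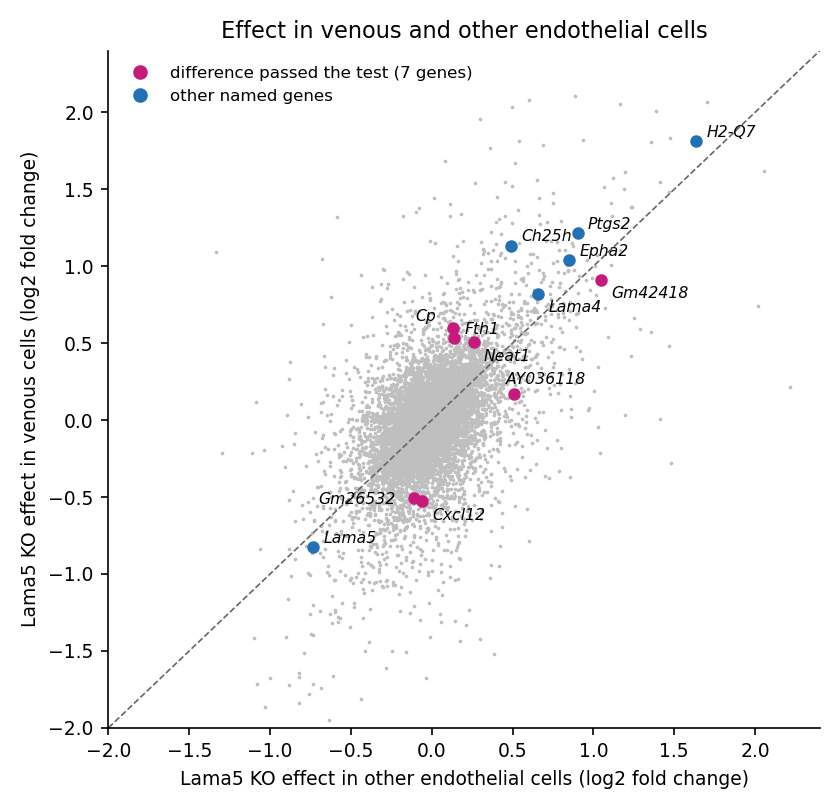
Log2 change in the Lama5 KO in other endothelial cells (horizontal axis) and in venous cells (vertical axis), 1 grey point per gene of 11168, with 10 genes outside the plotted range and equal effects on the dashed line. Cxcl12, Cp and Fth1 lie away from the line near 0 on the horizontal axis, and H2-Q7, Ptgs2 and Epha2 lie near the line.

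The Lama4 KO had 1 library, so no test was made. A rule of size was used instead: 20 CPM in the higher group, a log2 ratio of at least 1 in size with 5 CPM added, and Poisson 95% intervals apart from both WT libraries. Without the rule genes, 14 of 6645 genes passed (0.211%). All but Col6a6, AC160336.1 and Lama4 were globins, Ttr, or genes held over 10 times higher by another cell class. Col6a6, a collagen VI chain, was at 11.6 and 6.54 CPM in WT and 23.3 CPM in KO, and in other endothelial cells it was at most 0.639 CPM in these libraries. AC160336.1 was at 42.9 and 35.2 CPM in WT and 14.95 CPM in KO.

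Of the rule genes, which are given as values only, Ackr1 was at 33.0 and 21.1 CPM in WT and 67.4 CPM in KO, and Tmem252 at 751 and 763 CPM in WT and 1170 CPM in KO. Edn1 was at 156 and 154 CPM against 262 CPM, Klf2 at 3973 and 3597 CPM against 5281 CPM, Pla2g4a, a phospholipase that releases arachidonic acid, at 88.6 and 82.1 CPM against 149 CPM, and Cxcl12 at 1272 and 1167 CPM against 871 CPM. Of these, Tmem252, Edn1, Klf2, Pla2g4a and Cxcl12 did not reach the rule of size.

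Red cell genes summed to 1952 and 2365 CPM in the WT venous cells and 24.99 CPM in the KO, and neutrophil and other leukocyte genes to 1085 and 232 CPM against 13.97 CPM. Choroid plexus genes summed to 177 and 1420.0 CPM in WT and 2612 CPM in KO. Across 3685 genes at 50 CPM or more, the standard deviation of the log2 ratio was 0.31 and 0.27 between the KO and the single WT libraries and 0.17 between the WT libraries. The WT libraries came from the same pool of mice and the KO from another, and the spread between pools cannot be told apart from a genotype effect.

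The size of such a spread between pools is seen where WT venous cells of the experiments are compared. Of 11320 genes 4536 differed (40.1%) between the Lama5 WT and the Lama4 WT, 2420 of them higher in the Lama5 WT. All 13 immediate-early and heat-shock genes passed, with a median log2 difference of 1.51. Fosb, for example, was at 279 and 253 CPM in the Lama4 WT and 1768 and 1796 CPM in the Lama5 WT. Of 13 class I genes 12 passed, with a median of -0.45. Experiment, pool and any difference of strain or handling cannot be told apart here, and both comparisons of a KO with its WT are likewise comparisons of single pools.

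Venous cells made up 10.5% and 10.8% of endothelial cells in the Lama5 WT and 10.4% and 9.33% in the Lama5 KO, with exact binomial 95% intervals of 9.72% to 11.4%, 10.0% to 11.7%, 9.60% to 11.3% and 8.55% to 10.2%. The mean difference was -0.80 percentage points. Its exact two-sided permutation p was 0.333, the smallest that 2 libraries against 2 can give. This test therefore cannot decide whether the share differed, and the cells it counts were chosen by the rule genes. The direction depended on the rule: with at least 2 rule genes the difference was -5.78 points, with at least 4 it was 0.82 points, and after thinning to 2000 UMIs it was 1.44 points. In the Lama4 experiment the shares were 19.5% and 18.6% in WT and 16.0% in KO, a difference of -3.03 points, which was -0.15 points after thinning. These shares rest on genes whose level and depth differed between groups, and they count barcodes after digestion, not cells in the vessel wall.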

How the data were processed

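Raw UMI counts per gene and barcode were deposited by the authors. Cell Ranger (software version 3.1.0) wrote the matrices, per the file headers, and the submitters' processing notes name mm10 and Seurat 3.1. No normalisation is recorded for them. Of 31053 gene IDs, 30934 were in GENCODE M21, which gave the coordinates (GRCm38). Cells were selected as described in the report, without a doublet caller; cells with at least 3 markers of another type were dropped in an alternative. Members and gene lists were chosen with earlier results of these data known.

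Counts were summed per library over venous cells and tested with edgeR 4.0.16 (quasi-likelihood F test, filterByExpr, TMM, Benjamini-Hochberg adjusted p under 0.05) in R 4.3.3. DESeq2 1.42.0 was an alternative. The interaction model had library as a term. Fitted changes use TMM-scaled totals and CPM plain totals, so they differ slightly. Intervals cover counting error only.

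Named genes were the 12 largest rises and 12 largest falls among called genes with 50 CPM and separated libraries, excluding rule genes, mitochondrial genes, Ttr, globins and genes over 10 times higher in another cell class. For venous against other endothelial cells the 20 highest and 10 lowest ratios were eligible, and up to 4 called members per list. Other list members named in the report were chosen after their values were seen. The fits were tested on simulated data. Some genes that met these rules are not reported here.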

Additional observations from a re-analysis of the deposited data

Results flagged for a closer look

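For 7 genes the effect of the Lama5 KO differed between venous and other endothelial cells by a test of the difference itself (edgeR, Benjamini-Hochberg adjusted). On simulated counts this test gave 9 false calls, so false calls may be among the 7. On the log2 scale, venous minus other, the differences were -0.47 for Cxcl12, -0.40 for Gm26532, -0.35 for AY036118 and -0.14 for Gm42418, which fell more or rose less in venous cells. They were 0.24 for Neat1, 0.39 for Fth1 and 0.47 for Cp, which rose more in venous cells. Among venous cells with exactly 3 rule genes Fth1 was at 2681 and 2379 CPM in WT and 2669 and 3019 CPM in KO, and with 4 or more at 3010.0 and 2728 CPM in WT and 4176 and 4136 CPM in KO. With at least 4 rule genes the differences of Cxcl12 (-0.27), Cp (0.44) and Neat1 (0.26) did not pass, and those of Fth1 (0.45), Gm26532 (-0.44), AY036118 (-0.41) and Gm42418 (-0.18) did.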

How the results depend on the processing

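The count of 904 genes changed by the Lama5 KO was 278 with DESeq2, 465 in cells with at least 4 rule genes and 290 in cells with exactly 3, the last chosen after seeing the data. It was 706 to 968 without single libraries, and 869 to 883 with RLE factors, no low-count filter, no Lcn2 in the rule, stricter cells (1000 genes, under 10% mitochondrial UMIs) or no mixed cells. The correlation of deviations between same-numbered libraries was -0.16. The labels do not say what the numbers mark, and a correlation of this size cannot settle whether they pair the libraries. With the replicate block 830 genes passed. With the crossed pairing, chosen after seeing the data, 1206 passed.

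The 7 differences between venous and other endothelial cells became 70 without the low-count filter, 36 without mixed cells, and 44, 16, 13 and 32 without Lama5 WT library 1, WT library 2, KO library 1 and KO library 2. The 4536 differences between the WT pools ranged from 3647 to 4548. The 14 genes of the Lama4 KO became 8 at 50 CPM and 23 with at least 4 rule genes, and 12 without Lama4 WT library 1 and 22 without library 2.

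The Lama5 share difference of -0.80 points reversed to 0.82 with at least 4 rule genes, 0.55 with stricter cells and 1.44 after thinning. It was -5.78 with at least 2 genes, -1.38 with at least 2 after thinning and -1.80 with Lcn2 left out as well, the last pair chosen after seeing the data. It was -1.35 without KO library 1 and -0.25 without KO library 2, the extremes over single libraries. The Lama4 share difference of -3.03 points was -0.64 with at least 4 rule genes, -5.41 with at least 2 and -0.15 after thinning. With at least 2 genes after thinning it was -1.42, and -1.35 without Lcn2, both chosen after seeing the data. It was -3.47 to -2.60 without a WT library. Of 1101 values of 83 named or listed genes, 982 kept direction and call, 117 lost the call and 2 reversed, both without Lama5 WT library 1: Hba-a1 ranged from -1.73 to 0.24 and Hba-a2 from -1.68 to 0.20 without single libraries. Apart from settings that use fewer cells or genes, the cause of these changes was not tested.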
